A study of Schizosaccharomyces pombe with 130 samples.

Results

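Total RNA was sequenced from fission yeast (Schizosaccharomyces pombe) cells lacking Caf1 and from wild-type cells, and these 4 libraries, 2 caf1Δ and 2 wt, of the 130 samples of the series are described here. They were chosen by their labels alone, as every library with total RNA as its target and caf1d or wt as its genotype. The caf1Δ strain is number 510 and the wild type number 65. Per the strain list of the study, both are h90 (cells that switch mating type), carry ura4+ inserted in the outer repeat of centromere 1, the ura4-DS/E, leu1-32 and ade6-M210 alleles and a 3xFLAG tag on ago1, and differ by the replacement of caf1 with kanMX6. Cells were grown in rich medium. The other total RNA libraries, 2 of ago1Δ and 2 of clr4Δ, entered the same fit. These are h+ strains, and the tag on ago1 is not listed for them, so mating type and ago1 cannot be told apart from genotype wherever caf1Δ is set against them.

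Caf1 is a deadenylase of the Ccr4-Not complex, which shortens the poly(A) tail of messenger RNAs and so starts their decay. In fission yeast the complex also takes part in the silencing of heterochromatic transcripts, alongside the RNA interference pathway of Ago1 and the histone H3K9 methyltransferase Clr4. Total RNA is not selected for a poly(A) tail, so transfer RNA, 5S ribosomal RNA, small nuclear RNA and other transcripts without a tail can be counted in it. Many transfer RNA genes are transcribed with an intron that is later cut out, and 5S and transfer RNA genes are read by RNA polymerase III.

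The deposited values are numbers of reads per feature for 7021 features. Library totals were 1404582 and 2725034 in caf1Δ libraries 1 and 2, against 2023229 and 6703361 in wt libraries 2 and 3, and 771954 to 3595183 in the ago1Δ and clr4Δ libraries. Levels below are CPM, counts scaled to a common library total after TMM normalization. The libraries grouped by their number more than by genotype. Libraries caf1Δ 1 and caf1Δ 2 had a Spearman correlation of 0.841, below that of caf1Δ 1 with clr4Δ 1 (0.965) and of caf1Δ 2 with wt 2 (0.939). Libraries wt 2 and wt 3 correlated at 0.831. Library wt 2 was also above wt 3 and both caf1Δ libraries in its stress transcripts. The small heat shock protein gene hsp16 had 240.4 and 1059 CPM in caf1Δ, against 6744 CPM in wt 2 and 20.6 CPM in wt 3. The catalase gene ctt1 had 49.0 and 279.9 CPM in caf1Δ, against 1556 CPM in wt 2 and 61.0 CPM in wt 3. Library clr4Δ 2, which correlated with wt 2 at 0.962, had 8587 CPM of hsp16 and 529.4 CPM of ctt1. Nothing in the labels says whether the libraries came from separate cultures, so the p-values measure at most the spread between these libraries.

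The deleted gene was read first, as a check of the labels. The caf1 feature (SPCC18.06c, chromosome III, 1965430 to 1966906 in RefSeq ASM294v3) had 18 and 42 counts in caf1Δ, against 103 and 308 counts in wt, or 9.59 and 15.9 CPM against 59.2 and 60.6 CPM. The caf1Δ libraries thus held 16% and 26.5% of the mean wt level, and both were below every other total RNA library. The feature was left out of all fits. Its neighbours did not pass the test: rsa4 and rpc53 had log2 fold changes of 0.59 ± 0.35 (SE, adjusted p = 0.573) and 0.63 ± 0.36 (adjusted p = 0.552).

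To ask which transcripts change in total RNA without Caf1, caf1Δ was tested against wt in a fit of all 8 total RNA libraries with genotype and replicate number as terms. The number was a term because same-numbered libraries deviated together. With 2 libraries per genotype, deviations from the genotype mean mirror each other. Libraries caf1Δ 1 and wt 3, of unlike number, thus correlated at 0.45 in them, the same as caf1Δ 2 and wt 2. The check cannot show that the number is what pairs wt with caf1Δ. Since caf1Δ and wt share number 2 only, the contrast rests on caf1Δ 2, caf1Δ 1 by way of the other mutants, and wt 2. Library wt 3 is alone in its number and carries no weight in any fold change of this fit. Libraries wt 2 and wt 3 are each fitted exactly, so the spread behind the p-values comes from the caf1Δ, ago1Δ and clr4Δ libraries alone. The difference between wt 2 and wt 3 does not enter it. Of 6103 features tested, 45 passed an adjusted p of 0.05 (0.737%), 5 higher (0.0819%) and 40 lower (0.655%) in caf1Δ. Without the number as a term, where wt 3 counts too, 0 passed with edgeR, and 91 features had an unadjusted p under 0.05. The 45 had the same direction in that fit. With caf1Δ 2 left out, 24 features passed, 7 of them among the 45, and with the scale set on protein-coding genes alone 17 passed.

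In only 20 of the 45 did both caf1Δ libraries lie beyond both wt libraries, 5 above and 15 below. Over all features tested, 12.0% lay above and 9.16% below both wt libraries. In the remaining 25, all lower in caf1Δ by the fit, wt 3 was not above both caf1Δ libraries. All 45 calls were made against wt 2, and for these 25 the levels in wt 3 do not bear out the fall. The 20 are described first, and the plot of their CPM shows each library.

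**Figure D1:**
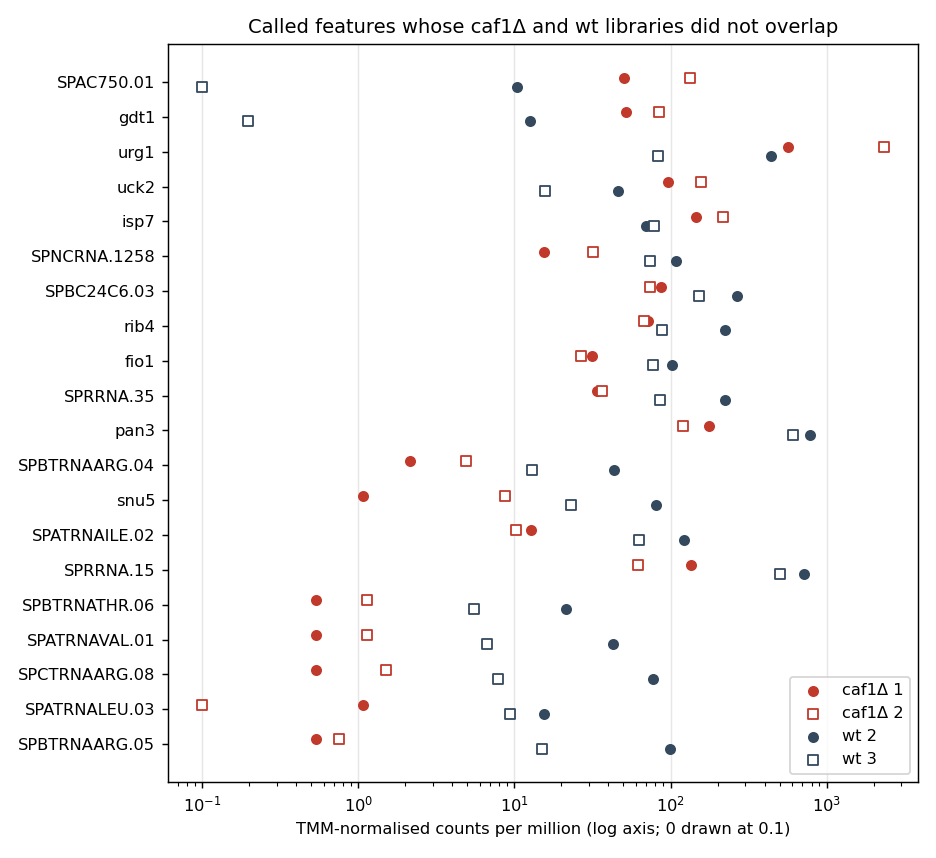
TMM-normalised CPM (log axis) of the 20 called features whose caf1Δ (red) and wt (dark) libraries did not overlap, 1 point per library. The top 5 features are higher in both caf1Δ libraries and the other 15 lower; for most of the transfer RNAs wt 2 is well above wt 3.

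The genes urg1 and uck2, which lie near each other on chromosome I, and are both annotated to nucleotide or base metabolism, rose in caf1Δ. Transcripts of urg1 (SPAC1002.19, chromosome I, 1835254 to 1837060), a uracil-regulated gene annotated as a GTP cyclohydrolase II, had 564.5 and 2342 CPM in caf1Δ, against 437.5 CPM in wt 2 and 82.6 CPM in wt 3. The log2 fold change was 2.50 ± 0.48 (SE, adjusted p = 0.0409). Both caf1Δ libraries were higher than both wt libraries, but caf1Δ 1 was close to wt 2. The gene uck2 (SPAC1399.04c), annotated as a uracil phosphoribosyltransferase and 3561 bp from urg1, had 95.9 and 156.7 CPM in caf1Δ, against 46.0 and 15.7 CPM in wt (log2 fold change 2.02 ± 0.39, adjusted p = 0.0411). Its groups did not overlap, and on the log scale the wt libraries lay further apart than the lower caf1Δ library from the higher wt library. Other genes of the stretch did not pass the test. Between urg1 and uck2 lies toe1, with 33.6 and 57.0 CPM in caf1Δ, against 37.9 and 27.9 CPM in wt (adjusted p = 0.602), and beyond uck2 lies fur4, with an adjusted p of 0.749. On the other side of urg1 are urg2 and urg3. The urg2 transcript had 568.7 and 669.6 CPM in caf1Δ, against 165.6 and 78.8 CPM in wt (adjusted p = 0.0943), and urg3 had 339.0 and 318.4 CPM, against 127.6 and 107.9 CPM (adjusted p = 0.127). These neighbours were named after their values were seen.

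The other 3 rises were of genes with varied roles, of which SPAC750.01 and gdt1 lie close together on chromosome I. SPAC750.01 (chromosome I, 5555674 to 5556768), annotated as an aldo/keto reductase, had 50.1 and 132.6 CPM in caf1Δ, against 10.3 CPM (18 counts) in wt 2 and 0 CPM in wt 3, where 0 counts allow up to 0.590 CPM. Its log2 fold change of 3.45 ± 0.58 was the largest rise among the 5 (adjusted p = 0.0261). SPAC750.01 had 24.1 and 17.0 CPM in ago1Δ and 53.6 and 126.2 CPM in clr4Δ. The gene gdt1 (SPAC186.05c, chromosome I, 5540032 to 5541481), which encodes a GDT1-like protein, had 52.2 and 83.8 CPM in caf1Δ, against 12.6 and 0.197 CPM in wt (log2 fold change 2.56 ± 0.47, adjusted p = 0.0326). It was also high in clr4Δ (71.5 and 63.3 CPM) and low in ago1Δ (3.01 and 5.56 CPM), so its level in wt was nearer to that in ago1Δ. Its neighbour SPAC186.06 had 7.46 and 24.9 CPM in caf1Δ, against 0.575 and 0 CPM in wt, and did not pass (adjusted p = 0.216). On the other side SPAC186.04c did not pass either (adjusted p = 0.744). The gene isp7 (SPAC25B8.13c), an oxygenase gene of the nitrogen-responsive list, had 145.5 and 217.2 CPM in caf1Δ, against 69.6 and 78.1 CPM in wt, with wt libraries close to each other (log2 fold change 1.66 ± 0.34, adjusted p = 0.0493).

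Transfer RNA genes made up 8 of the 40 falls, and 7 of these 8 had groups that did not overlap. Outside heterochromatin only uniquely mapped reads were counted. Of 171 nuclear transfer RNA genes in the files, 37 have a sequence found at only 1 place in the genome, and the 14 that passed the count minimum are all among these. A gene that passed the minimum only through wt was bound to be lower in caf1Δ, so the share called among the 14 is no support for a family-wide change. Of the 8 called, SPATRNALEU.03, SPATRNAVAL.01, SPBTRNATHR.06 and SPATRNAPRO.01 passed the minimum through a wt library, and their values are given as a description. The 3 called genes with an intron are shown because their unspliced and spliced forms differ, with the intron in capitals, from the RefSeq ASM294v3 genome, 5′ to 3′ on the gene's strand.
SPBTRNAARG.05: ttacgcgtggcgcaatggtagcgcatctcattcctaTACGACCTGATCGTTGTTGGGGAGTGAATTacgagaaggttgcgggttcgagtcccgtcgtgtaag
SPATRNALEU.03: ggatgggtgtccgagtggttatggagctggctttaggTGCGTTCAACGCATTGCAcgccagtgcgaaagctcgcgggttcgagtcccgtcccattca
SPATRNAILE.02: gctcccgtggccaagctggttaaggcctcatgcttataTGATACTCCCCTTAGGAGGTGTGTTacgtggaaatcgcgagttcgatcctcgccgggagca
The deposited counts do not separate reads with the intron from reads without it.

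SPBTRNAARG.05, a tRNA-Arg gene with a 30-base intron (chromosome II, 1160893 to 1160994), had 1 and 2 counts in caf1Δ, against 172 and 77 counts in wt. These are 0.533 and 0.755 CPM in caf1Δ, against 98.9 and 15.1 CPM in wt, and its log2 fold change of -6.65 ± 0.70 was the largest of all 45 (adjusted p = 0.00245). Pooled over libraries, the caf1Δ level was 0.0182 of that in wt, with an exact 95% interval of 0.00372 to 0.0537 that covers counting error only. SPATRNALEU.03 (tRNA-Leu, 18-base intron, chromosome I, 3591948 to 3592044) had 2 and 0 counts in caf1Δ, against 27 and 48 counts in wt, with 3 to 7 counts in ago1Δ and clr4Δ. SPATRNAILE.02 (tRNA-Ile, 25-base intron, chromosome I, 2578426 to 2578524) was the most abundant of them, with 12.8 and 10.2 CPM in caf1Δ, against 121.9 and 62.9 CPM in wt (log2 fold change -3.27 ± 0.63, adjusted p = 0.0411). All 3 were lower in both caf1Δ libraries, and in all 3 wt 2 was above wt 3.

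The other 5 called transfer RNA genes have no intron, of 7 such genes tested, beside 0.655% called lower over all features. Among them SPATRNAVAL.01, SPBTRNATHR.06 and SPATRNAPRO.01 passed the count minimum through a wt library, so this share is not read as a result. A pair of tRNA-Arg genes is shown because they differ by 1 of 73 bases, which is in capitals. It is C50T from SPCTRNAARG.08 to SPBTRNAARG.04, counted from 1 at the 5′ end. A counted read must lie wholly within the gene, so it can be assigned to either only where it covers that base.
SPCTRNAARG.08: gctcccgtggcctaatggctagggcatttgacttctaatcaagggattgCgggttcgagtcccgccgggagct
SPBTRNAARG.04: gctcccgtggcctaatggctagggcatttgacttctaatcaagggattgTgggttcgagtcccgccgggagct
SPCTRNAARG.08 (chromosome III, 578847 to 578919) had 0.533 and 1.51 CPM in caf1Δ, against 77.6 and 7.87 CPM in wt (adjusted p = 0.00552). SPBTRNAARG.04 (chromosome II, 326652 to 326724) had 2.13 and 4.91 CPM in caf1Δ, against 43.7 and 13.0 CPM in wt (adjusted p = 0.0409). Reads common to both were not counted, so the counts cover part of each gene's reads. SPATRNAVAL.01 (tRNA-Val) had 1 and 3 counts in caf1Δ, against 75 and 34 counts in wt, and SPBTRNATHR.06 (tRNA-Thr) had 1 and 3 counts, against 37 and 28 counts. SPATRNAPRO.01 (tRNA-Pro) was among the 8 called, but with 0 and 4 counts in caf1Δ, against 82 counts in wt 2 and 2 counts in wt 3, it did not separate the groups. Counts on transfer RNA genes were a small share of each library, 0.00570% and 0.00308% in caf1Δ, against 0.0584% and 0.0130% in wt, and 0.00615% to 0.0141% in ago1Δ and clr4Δ. The size range of RNA kept in these libraries is not given in the sources used here, and its part in the result was not tested.

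Another 4 falls came in same-strand pairs of a 5S ribosomal RNA gene and the gene downstream of it. SPRRNA.15 (chromosome I, 3547889 to 3548049, minus strand) lies 572 bp upstream of pan3, and SPRRNA.35 (chromosome II, 2322705 to 2322851, plus strand) lies 87 bp upstream of SPBC24C6.03. Both 5S genes are shown to mark what they share: each occurs once in the genome as a whole, while the 45-base run in capitals is common to both and is found at 30 places.
SPRRNA.15: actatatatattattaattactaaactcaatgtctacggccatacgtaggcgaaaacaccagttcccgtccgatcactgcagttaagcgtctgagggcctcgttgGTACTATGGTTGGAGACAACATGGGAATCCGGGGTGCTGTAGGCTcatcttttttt
SPRRNA.35: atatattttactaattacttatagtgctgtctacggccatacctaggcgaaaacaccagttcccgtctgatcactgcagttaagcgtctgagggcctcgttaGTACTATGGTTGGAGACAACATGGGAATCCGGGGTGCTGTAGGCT
Ribosomal RNA reads were removed before deposit, so counts on 5S genes are what that step left.

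SPRRNA.15 had 134.9 and 62.3 CPM in caf1Δ, against 721.5 and 502.9 CPM in wt (log2 fold change -3.49 ± 0.68, adjusted p = 0.0411). Its neighbour pan3 (SPAC1B1.04c, chromosome I, 3544706 to 3547317), a subunit gene of the Pan2-Pan3 deadenylase, had 175.9 and 120.1 CPM in caf1Δ, against 785.9 and 606.6 CPM in wt (log2 fold change -2.71 ± 0.56, adjusted p = 0.0478). Library by library pan3 followed SPRRNA.15 also in the other mutants. In ago1Δ, SPRRNA.15 had 448.5 and 79.1 CPM and pan3 had 501.7 and 160.8 CPM; in clr4Δ, SPRRNA.15 had 545.5 and 785.8 CPM and pan3 had 592.6 and 845.5 CPM. SPRRNA.35 had 33.6 and 36.3 CPM in caf1Δ, against 221.9 and 85.3 CPM in wt (log2 fold change -2.68 ± 0.44, adjusted p = 0.0233). SPBC24C6.03, annotated as a proline-tRNA ligase, had 86.9 and 74.0 CPM in caf1Δ, against 268.5 and 151.2 CPM in wt (log2 fold change -1.80 ± 0.37, adjusted p = 0.0478). Genes on the far sides did not pass: kap95, downstream of pan3, had an adjusted p of 0.55 and spb4, upstream of SPRRNA.35, had one of 0.892. Whether reads of a 5S transcript reach into the gene downstream was not tested, since the files hold 1 number per feature.

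Of the remaining 4 falls, fio1 (SPAC1F7.08, chromosome I, 4235072 to 4237874), the multicopper oxidase of high-affinity iron uptake, had 31.4 and 26.8 CPM in caf1Δ, against 102.3 and 76.9 CPM in wt. The groups were far apart relative to the spread within them (log2 fold change -1.96 ± 0.35, adjusted p = 0.0326). Its divergent neighbour fip1, the permease that works with Fio1 and whose gene starts 304 bp away, had 17.1 and 30.2 CPM in caf1Δ, against 58.6 and 58.0 CPM in wt, and did not pass (adjusted p = 0.190). The gene rib4 (SPBC409.13), a riboflavin synthesis enzyme, had 71.4 and 67.6 CPM in caf1Δ, against 223.6 CPM in wt 2 and 88.5 CPM in wt 3 (log2 fold change -1.94 ± 0.34, adjusted p = 0.0326). Its groups were separated by little, and it overlaps mrps17, which did not pass (adjusted p = 0.842). The U5 small nuclear RNA gene snu5, a spliceosome component, had 1.07 and 8.69 CPM in caf1Δ, against 81.1 and 23.0 CPM in wt (log2 fold change -3.21 ± 0.58, adjusted p = 0.0326). The non-coding SPNCRNA.1258 had 15.5 and 31.7 CPM in caf1Δ, against 108.1 and 73.9 CPM in wt (adjusted p = 0.0372). It overlaps the 3′ side of tpx1, a peroxiredoxin gene on the same strand, with 182.3 and 1568 CPM in caf1Δ, against 4407 and 2054 CPM in wt (adjusted p = 0.127), and its reads cannot be told apart from those of tpx1 in the overlap.

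The 25 falls with overlapping groups held 1 member of the stress list, srx1, and none of the heat shock list. The largest fitted change among them was that of hry1, annotated as a protein with a cation-binding HHE domain, with 1.07 and 14.3 CPM in caf1Δ, against 1300 CPM in wt 2 and 0.197 CPM in wt 3 (adjusted p = 0.0326). Transcripts of srx1, the sulfiredoxin gene of the stress list, were at 19.2 and 42.7 CPM in caf1Δ, against 326.0 CPM in wt 2 and 5.90 CPM in wt 3 (adjusted p = 0.00552), and osr1, annotated as a dehydrogenase, at 46.4 and 88.8 CPM, against 578.9 CPM in wt 2 and 4.92 CPM in wt 3 (adjusted p = 0.00961). In each of these, caf1Δ was lower than wt 2 and higher than wt 3 in at least 1 library. Without wt 2, in a fit that cannot hold the number, srx1 had a log2 fold change of 2.39, on the other side of 0. The spore wall gene isp3 had 11.2 and 17.0 CPM in caf1Δ, against 171.9 CPM in wt 2 and 14.0 CPM in wt 3. Other members were hsp3104 and hsp3105, glyoxalase genes, the kinase genes ppk8 and ppk31, min8, rtc3 and 9 long non-coding or antisense RNAs. The plot of the 45 in both pairs of libraries shows this split.

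**Figure D2:**
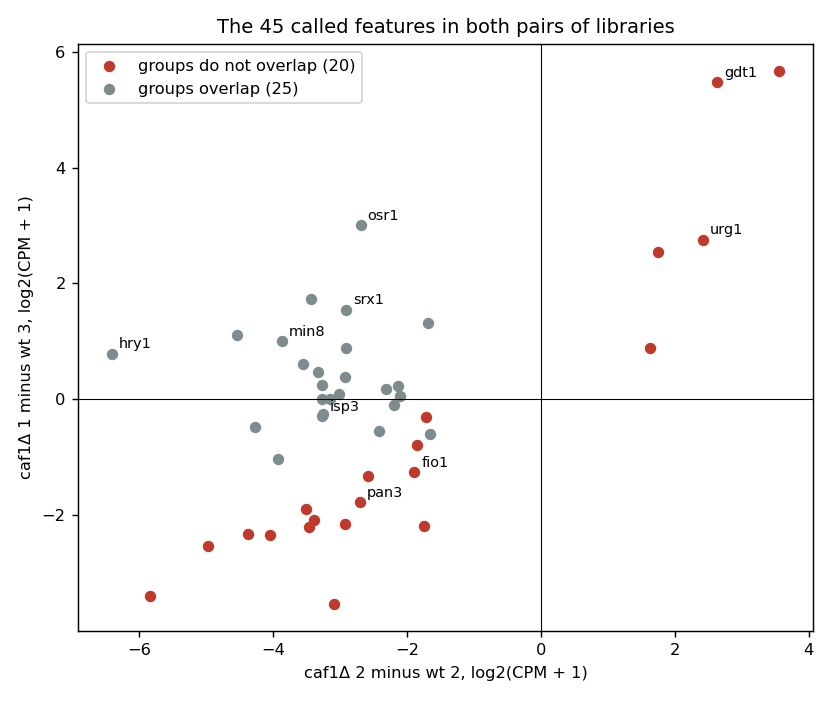
Difference of log2(CPM + 1) between caf1Δ 2 and wt 2 (x axis) and between caf1Δ 1 and wt 3 (y axis) for the 45 called features; red marks the 20 whose groups did not overlap. Red points lie in the lower left or upper right, while grey points such as hry1, osr1 and srx1 are lower in caf1Δ on the x axis and near or above 0 on the y axis.

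The gene lists were described by counts and medians, beside a median log2 fold change of 0.0064 over all features tested. All 22 stress response genes had a negative log2 fold change (median -1.06, srx1 called), and the heat shock and chaperone list had 17 of 20 negative (median -0.58, none called). Of the 4 libraries, wt 2 was highest for the stress list and wt 3 for the heat shock list: the summed level of the stress list was 4088 and 9767 CPM in caf1Δ, against 26760 CPM in wt 2 and 6018 CPM in wt 3. Ribosome biogenesis genes leaned the other way, with 52 of 58 positive and a median of 0.42 (0.46 without the number), none called. The 1035 annotated non-coding RNAs tested held 10 of the falls and no rise, beside 0.655% lower over all features, with a median of -0.62 (-0.33 without the number). The lncRNA share of counts was 6.18% and 7.61% in caf1Δ, against 14.2% in wt 2 and 4.85% in wt 3. The 36 snoRNA genes, which guide RNA modification, had a median of -1.57 (-0.39 without the number), none called, and their share was 2.51% and 2.86% in caf1Δ, against 5.87% in wt 2 and 1.64% in wt 3. For both classes caf1Δ thus lay between the wt libraries. The 6 snRNA genes had a median of -1.72 (-1.38 without the number), with snu5 called. Other subunits of Ccr4-Not did not pass: ccr4 had 206.8 and 281.4 CPM in caf1Δ, against 153.5 and 208.0 CPM in wt (log2 fold change 0.97 ± 0.36, adjusted p = 0.291), and not1, not2, not3, mot2 and rcd1 had log2 fold changes from -0.70 to 0.25. None of the 12 RNAi factors, 17 heterochromatin factors, 8 Mmi1-eliminated meiotic mRNAs, 24 sexual differentiation genes or 21 exosome and Mmi1 factors tested passed. Of the mRNA decay factors, pan3 alone passed. Of 12 iron genes, fio1 alone passed, and of 17 nitrogen-responsive genes, isp7 rose and isp3 fell.

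Some list medians changed sign with the number term. The 24 mitochondrially encoded features had a median of -1.88 with it and 2.7 without it, as their share of counts was 5.85% and 2.59% in caf1Δ, against 1.67% in wt 2 and 1.95% in wt 3, and 5.42% to 5.62% in the other libraries numbered 1. The 138 cytoplasmic ribosomal protein genes had medians of 0.131 and -0.91, and the 36 amino acid biosynthesis genes 0.40 and -0.28. No member of these 3 lists passed, and no direction is drawn for them. The 3 marker genes ura4, ade6 and leu1, which the 2 strains share, did not pass (adjusted p = 0.413, 0.720 and 0.891).

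At heterochromatic features, caf1Δ was not called different from wt in total RNA at any of 29. How far its libraries agreed varied by region. The subtelomeric ones with RefSeq coordinates lie within 1 to 34978 of chromosome I, so SPAC750.01 and gdt1 are not among the 29. The pericentromeric dg and dh repeats, 4 features on both strands, summed to 525 CPM in caf1Δ 1 and 21.2 CPM in caf1Δ 2, against 33.9 CPM in wt 2 and 46.6 CPM in wt 3. Library caf1Δ 1 was thus above both wt libraries and caf1Δ 2 below both. For dg on the plus strand, the counts were 318 and 8 in caf1Δ, against 13 and 71 in wt (log2 fold change 2.38 ± 1.55, adjusted p = 0.618), and for dg on the minus strand 295 and 15, against 8 and 68 (2.59 ± 1.25, adjusted p = 0.454). The dh repeat had 200 and 14 counts in caf1Δ on the plus strand, against 12 and 49 in wt, and 172 and 19 on the minus strand, against 26 and 49. These large errors leave a change of several fold undetectable.

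The subtelomeric tlh1 gene, a helicase-like gene in heterochromatin, had 386 and 49 counts in caf1Δ, against 25 and 649 counts in wt, so that wt 3 and caf1Δ 1 were both high (log2 fold change 1.43 ± 0.94, adjusted p = 0.619). Its plus strand had 89 and 12 counts in caf1Δ, against 7 and 8 in wt (adjusted p = 0.691), or 47.4 and 4.53 CPM against 4.02 and 1.57 CPM, which did not overlap. SPAC212.10 had 20 and 1 counts in caf1Δ, against 0 and 23 in wt, and its plus strand 11 and 3, against 0 and 1, too few for a fold. Of the 16 other subtelomeric features, 13 had a positive log2 fold change (median 0.69), and the smallest adjusted p was 0.290, for SPAC212.08c (40 and 18 counts in caf1Δ, against 3 and 59 in wt). Together these 16 were at 447.2 and 806.3 CPM in caf1Δ, against 420.8 and 275.7 CPM in wt. Library caf1Δ 1 was thus close to wt 2, and SPAC977.18 alone had 473.2 CPM in caf1Δ 2. In the mat locus, 1 of the features with no gene name had 170 and 3 counts in caf1Δ, against 7 and 35 in wt (adjusted p = 0.649), and mat2-Pc had 12 and 57, against 28 and 15. The mat locus features together were at 124.7 and 53.6 CPM in caf1Δ, against 33.3 and 30.3 CPM in wt.

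**Figure D3:**
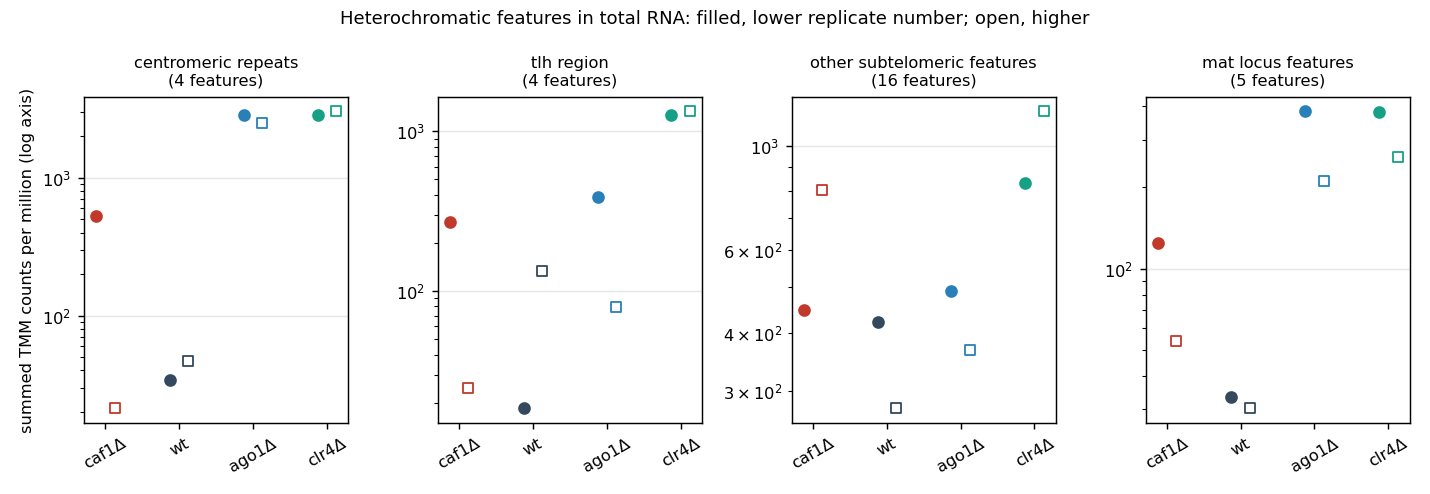
Summed TMM-normalised CPM (log axes, a scale per panel) of the heterochromatic features of 4 regions in each total RNA library of caf1Δ, wt, ago1Δ and clr4Δ; filled circles are the library with the lower number and open squares the one with the higher. At the centromeric repeats caf1Δ 1 is at 525 CPM and caf1Δ 2 at 21.2 CPM, and the ago1Δ and clr4Δ libraries are at 2489 to 3036 CPM.

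To ask where caf1Δ differs from mutants of RNAi and of H3K9 methylation, it was set against the mean of ago1Δ and clr4Δ in the same fit, where these 6 libraries share numbers 1 and 2. This test called 85 of 6103 features (1.39%), 22 higher (0.360%) and 63 lower (1.03%) in caf1Δ, and 0 without the number as a term (118 at an unadjusted p under 0.05, edgeR). The caf1Δ libraries lay beyond all 4 others in 49 of the 85, and in 11.8% of all features. Leaving out ago1Δ 1, ago1Δ 2 or clr4Δ 1 gave 444, 529 and 199 calls, and leaving out caf1Δ 1 or caf1Δ 2 gave 32 and 38. As this contrast shares the caf1Δ libraries with the first, no count of common calls is read as a result.

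All 4 dg and dh features were lower in caf1Δ. For dg on the plus strand, caf1Δ had 169.5 and 3.02 CPM, against 1175 and 1293 CPM in ago1Δ and 1271 and 1269 CPM in clr4Δ (log2 fold change -4.53, adjusted p = 0.0469). The other 3 had log2 fold changes of -4.59 for dh minus, -3.12 for dg minus and -2.55 for dh plus (adjusted p = 0.0156, 0.0464 and 0.0468), and each caf1Δ library was below every ago1Δ and clr4Δ library. The tlh1 plus strand (-2.09, adjusted p = 0.0464) and SPAC212.09c (-1.79, adjusted p = 0.0382) were lower too, the first with overlapping groups.

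Of 12 iron genes, 3 were called lower in caf1Δ than in the other mutants and none was called higher. Over all features tested 1.03% were called lower. For fio1, caf1Δ had 31.4 and 26.8 CPM, against 88.5 to 145.8 CPM (log2 fold change -1.98, adjusted p = 0.00803). The ferric reductase gene frp1 had 15.5 and 9.06 CPM, against 19.4 to 126.4 CPM (-2.31, adjusted p = 0.00984). The siderophore transporter gene str1 had 60.2 and 57.8 CPM, against 88.5 to 359.3 CPM (-1.69, adjusted p = 0.0410). In wt 2 and wt 3, frp1 had 28.7 and 8.45 CPM and str1 had 118.4 and 86.7 CPM. For frp1, wt 3 was thus below both caf1Δ libraries. Called lower as well were cta3, rds1 and gpd1 of 22 stress genes and hsp16 and hsp104 of 20 heat shock genes. Of these, only cta3 and hsp16 had groups that did not overlap. For hsp16, caf1Δ had 240.4 and 1059 CPM, against 1188 to 8587 CPM in ago1Δ and clr4Δ (-2.71, adjusted p = 0.0437), while wt 2 (6744 CPM) was within that range and wt 3 (20.6 CPM) was below both caf1Δ libraries. Also lower were the glycolytic gene tdh1 and the invertase gene inv1, both with overlapping groups. The kinase gene ppk31 had 9.06 and 8.31 CPM in caf1Δ, against 29.2 to 135.6 CPM (-3.19, adjusted p = 0.00668).

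The 22 rises include ago1, which is deleted in ago1Δ, so its call was fixed by the strains and is not read. It had 142.3 and 357.3 CPM in caf1Δ, against 3.01 and 3.22 CPM in ago1Δ and 54.6 and 74.5 CPM in clr4Δ, and caf1Δ was not tested against clr4Δ alone. Of the 5 rises of the first comparison, uck2 (1.23, adjusted p = 0.0273) and gdt1 (1.93, adjusted p = 0.0126) passed here too, both with overlapping groups. The septum glucanase gene eng1 (1.52), the flocculin gene pfl8 (1.26) and mug14 (1.76) were, beside ago1, the called members of protein-coding lists that rose, and mug147 fell (-1.72); of these, pfl8 alone had groups that did not overlap. None of the 58 genes of the ribosome biogenesis list passed. Outside that list and chosen after their values were seen, rlp7 (1167 and 672.6 CPM in caf1Δ, against 225.8 to 579.4 CPM) and ltv1 (174.8 and 160.9 CPM, against 71.2 to 120.4 CPM), both annotated to ribosome biogenesis, were above both mutants in each library (adjusted p = 0.0437 and 0.0496).

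To show where total RNA differs from polyadenylated (pA) RNA, in which the same caf1Δ strain was sequenced as 2 libraries beside 4 of wt (3 of strain 63 and 1 of strain 65), the caf1Δ change in total RNA was tested against that in pA RNA. The interaction called 76 of 6631 features (1.15%), 13 more positive and 63 more negative in total RNA, and 0 without the number term (393 at an unadjusted p under 0.05, edgeR). In pA RNA alone, 917 features (13.8%) passed, 513 higher and 404 lower in caf1Δ. Of the 45 features called in total RNA, 6 also passed in pA RNA, among them srx1 and osr1 with the opposite sign. This is beside 13.8% over all features, so the 6 are not read as a result. Strain 63 is h+ and carries no tag on ago1, so in 3 of the 4 pA wt libraries mating type and the tag cannot be told apart from genotype. With strain 65 as the only pA wild type, the interaction called 25 features.

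**Figure D4:**
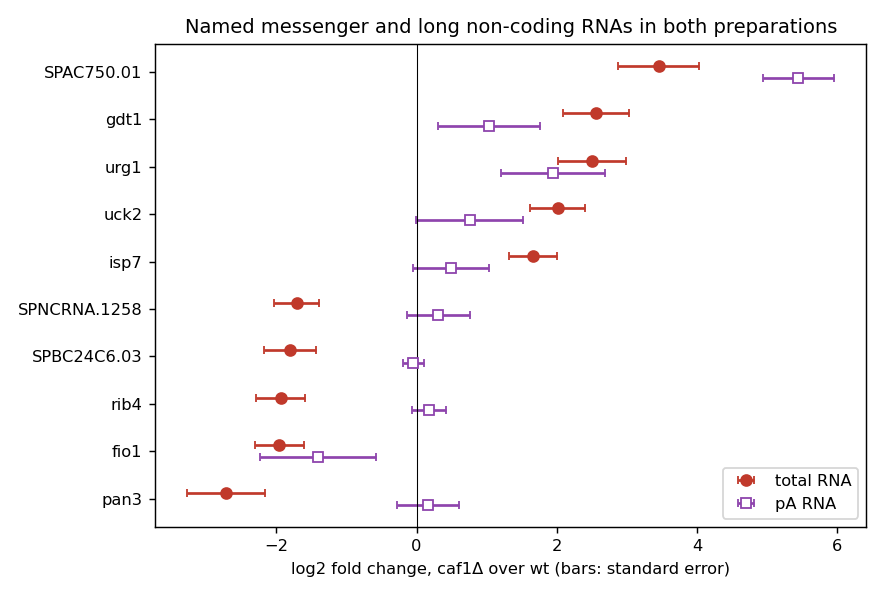
Log2 fold change of caf1Δ over wt with its standard error in total RNA (red circles) and in pA RNA (open squares) for the 10 named messenger and long non-coding RNAs. SPAC750.01 is higher in both (3.45 and 5.45), while SPBC24C6.03, rib4 and pan3 are lower in total RNA and near 0 in pA RNA.

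SPAC750.01 rose in pA RNA too, with 79.9 and 101.3 CPM in caf1Δ, against 0.306 to 2.84 CPM in wt (log2 fold change 5.45 ± 0.51, adjusted p = 1.4e-07). The urg1 transcript had 1817 and 2729 CPM in caf1Δ pA RNA, against 99.1 to 1067 CPM in wt, and did not pass (adjusted p = 0.0820). For isp7, caf1Δ pA RNA had 290.2 and 245.1 CPM, against 85.7 CPM in the wt library of strain 65 and 47.2 to 335.9 CPM in those of strain 63. For uck2 it had 451.9 and 403.4 CPM, against 60.5 CPM in strain 65 and 40.1 to 455.9 CPM in strain 63. For both genes caf1Δ was higher than strain 65 and within the range of strain 63. The fall of fio1 was not called in pA RNA (adjusted p = 0.276, edgeR). There fio1 had 42.6 and 17.3 CPM in caf1Δ, against 15.8 CPM in strain 65 and 40.1 to 159.1 CPM in strain 63, so its groups overlapped. SPBC24C6.03 had 85.2 and 99.3 CPM in caf1Δ pA RNA, against 83.6 to 107.7 CPM in wt, which set its fall in total RNA apart from pA RNA (interaction -1.77 ± 0.27, adjusted p = 0.00114). For pan3, pA RNA had 33.9 and 100 CPM in caf1Δ, against 28.6 to 93.7 CPM in wt (interaction -2.89 ± 0.79, adjusted p = 0.0717). The 5S neighbours of these genes were at or near 0 in pA RNA: SPRRNA.35 was at 0 in all 6 libraries and SPRRNA.15 at most at 0.213 CPM. Of the 7 named transfer RNA genes, SPATRNALEU.03 had 2 counts in 1 caf1Δ pA library, and the other 6 and snu5 had 0 counts in all 6 pA libraries, so no fold was computed for them there. The osr1 transcript rose in pA RNA, with 136.1 and 140.7 CPM in caf1Δ, against 15.3 to 23.4 CPM in wt, opposite in sign to its fall against wt 2 in total RNA. In pA RNA, 2 of 4 tlh region, 3 of 16 other subtelomeric and 2 of 5 mat locus features were called higher in caf1Δ. None of the 4 centromeric ones was, and over all features 513 of 6631 were. The tlh1 plus strand had 10.9 and 8.82 CPM in caf1Δ, against 1.47 CPM in strain 65 and 0.698 to 1.16 CPM in strain 63 (adjusted p = 0.000456, edgeR). No heterochromatic feature was called in the interaction. Ribosomal protein genes had 60 of 138 called lower in caf1Δ pA RNA, beside 404 of 6631 over all features. In total RNA none was called lower, beside 0.655% over all features. No member was called in the interaction, so the counts are not read as a difference between the preparations.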

How the data were processed

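Counts are the whole numbers of reads per feature that the authors deposited for each library, not normalized. The authors aligned reads with STAR (2.7.3a) to the PomBase genome, removed ribosomal reads, and counted reads by strand (a script built on htseq-count, in which a read must lie wholly within a feature). Reads with several locations were counted only in heterochromatin, up to a limit of 16 locations. Replicates were not pooled. The kit of the total RNA libraries is not given in the sources used here. An empty cell was read as 0. Total counts were 771954 to 6703361.

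A feature entered the fit if 2 or more of the 8 libraries had 10 counts or more. All 29 heterochromatic features were kept and caf1 was left out. Tests used the quasi-likelihood method of edgeR 4.0.16 in R 4.3.3 (TMM, two-sided, Benjamini-Hochberg over all features, threshold 0.05), with DESeq2 1.42.0 as an alternative. Genotype and the replicate number in the titles were terms: same-numbered libraries deviated together (Pearson correlations of deviations from the genotype mean 0.177 to 0.804, each above 0.1). For wt these values cannot show that the number pairs the libraries, since the 2 deviations of a genotype mirror each other. The fit has 2 residual degrees of freedom, which come from the mutant libraries alone. Alternatives changed the scaling, the filter, the tool, the number term and the libraries. RefSeq ASM294v3 gave names and coordinates for 6852 of 7021 features, and whether it is the authors' build was not tested. The fits were tested on simulated data.

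Named features were those past the threshold with a mean CPM of at least 5 and no overlap of groups (up to 15 per direction), called list members (up to 4 per list), heterochromatic features, neighbours of caf1 and strain markers. Others were named after their values were seen. The members and lists were chosen with earlier results of these data known. Reads carry no molecular identifiers, so counting intervals cover counting error only.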

Additional observations from a re-analysis of the deposited data

Results flagged for a closer look

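For 5 named features the caf1Δ change in total RNA differed from that in pA RNA by the interaction test in edgeR. The difference of log2 fold changes was -6.37 ± 1.35 (SE) for SPNCRNA.540 (adjusted p = 0.0144), -4.52 ± 0.76 for srx1 (adjusted p = 0.00232), -2.99 ± 0.63 for isp3 (adjusted p = 0.0144), -2.13 ± 0.43 for rib4 (adjusted p = 0.0104) and -1.77 ± 0.27 for SPBC24C6.03 (adjusted p = 0.00114). In the joint fit srx1 changed by -2.66 in total RNA and 1.86 in pA RNA, and SPBC24C6.03 by -1.81 and -0.0437. As wt 3 is alone in its number, it carries no weight here either, so the total RNA side of all 5 rests on wt 2. For srx1, isp3 and SPNCRNA.540, wt 3 was also not above both caf1Δ libraries. Groups of 2 libraries allowed no test for a single outlying library.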

How the results depend on the processing

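For caf1Δ against wt (45 calls), 47 features passed with DESeq2 size factors, 44 with the DESeq2 Wald test, 17 with TMM on protein-coding genes, 113 without a filter on low counts and 5 with 50 counts in 4 libraries. Without the replicate block 0 passed, also with the caf1Δ and wt libraries alone and with any of these 4 libraries left out. With the block, leaving out caf1Δ 2, wt 3 or caf1Δ 1 gave 24 to 48 calls, and leaving out wt 2 could not be fitted. Without wt 2 and without the block, 6 named features changed sign: SPNCRNA.540 (4.95), SPNCRNA.519 (0.21), bst1-antisense-1 (5.85), cwf4-antisense-1 (1.69), isp3 (0.022) and srx1 (2.39 on the log2 scale). Against ago1Δ and clr4Δ (85 calls), 0 features passed without the replicate block, 142 without the filter, 38 with 50 counts in 4 libraries, and 32 to 529 with 1 library left out. For total against pA RNA (76 calls), 0 passed without the replicate block and 25 with strain 65 as the only pA wild type. Leaving out 1 library without the block gave 0 to 78 calls (0 without caf1Δ 1 or wt 2 and 2 without caf1Δ 2). Causes were not tested, other than that fewer libraries or features were in some fits.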
